A study of Mus musculus with 32 samples.

Results

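The heterotrimeric G protein subunits and the transmembrane adenylyl cyclases were followed in the striatal transcriptome of the Line 4a congenic mouse. The genes were taken by name as families: 12 alpha subunits, 5 beta subunits, 10 gamma subunits and 9 cyclases. All 36 were found among the 23420 rows of the count tables, of which 20233 held at least 1 count, and all 36 were among the 15589 genes with enough counts to be tested.

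RNA came from bilateral striatal punches, pooled per mouse, of 8 untreated B6.D2 congenic mice and 8 untreated B6 littermates (C57BL/6J), all at an age of about 50 days. Line 4a is heterozygous for a segment of chromosome 11 from DBA/2J (D2) that was bred onto the B6 background, so the genotypes share that background and no mouse carried a transgene or an engineered deletion. The study also found a residual D2 marker outside the segment, in wild-type and heterozygous mice alike. It is a single congenic line, and the segment holds many genes. The comparison asks what the D2 segment changes in the striatum, a region that shapes the locomotor response to psychostimulants.

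A receptor that binds its ligand makes the alpha subunit exchange GDP for GTP, and alpha then parts from the beta-gamma dimer, and each acts on its own effectors. Alpha s and alpha olf stimulate adenylyl cyclase, alpha i, o and z inhibit it, and alpha q and 11 activate phospholipase C. In striatal projection neurons the usual stimulatory form is alpha olf (*Gnal*) with gamma 7 (*Gng7*) and type 5 cyclase (*Adcy5*), and through it dopamine and adenosine receptors raise cAMP.

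The libraries held 19032826 to 33748353 reads counted on genes per mouse in B6 and 24912413 to 32085311 in congenic mice. Levels are counts scaled to a common library size (CPM) with TMM factors, which correct for differences in library composition. Levels of different genes are compared only per kb of annotated exon. Marker genes of striatal projection neurons summed to 6242 to 9201 CPM in B6 and 6809 to 7880 CPM in congenic mice, and none of the 12 had an unadjusted p under 0.05. Markers of cortical glutamatergic neurons summed to 492.0 to 832.9 CPM in B6 and 328.7 to 705.9 CPM in congenic mice. Congenic mouse 1 and B6 mouse 8 stood apart in the full tally of the read counter, where a read with more than 1 alignment may enter more than once. Entries outside annotated exons were 10.2% and 11.3% of their tally, against 14.5% to 15.9% in the others. Entries with more than 1 alignment were 27.3% in congenic mouse 1, against 19.5% to 21.4% in all others.

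Per kb of exon, 1 gene led each of the gamma, cyclase and beta classes. *Gng7* stood at 413.9 ± 43.2 CPM per kb (SD, n = 16 mice) and made up 67.4% ± 3.52 of all gamma subunit signal. *Adcy5*, a cyclase that calcium inhibits, stood at 176.2 ± 24.4 CPM per kb and made up 64.2% ± 2.72 of the cyclase signal. *Gnb1* stood at 209.4 ± 14.4 CPM per kb, or 48.5% ± 1.43 of the beta signal. *Gnb2* at 110.5 ± 11.8 and *Gnb5*, the partner of the R7 family of RGS proteins, at 107.7 ± 12.01 followed. The difference between *Gnb2* and *Gnb5* within a mouse was not tested.

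By annotated length the alpha class was more even. *Gnao1*, the main alpha o of brain, had the highest value at 132.0 ± 3.99 CPM per kb and 24.7% ± 0.82 of the alpha signal. *Gnal* followed with 93.1 ± 9.25, *Gnai2* with 80.2 ± 5.61 and *Gnas*, the general stimulatory alpha, with 61.1 ± 7.63 CPM per kb. These SDs are between mice and do not measure the difference between *Gnal* and *Gnai2* within a mouse, which was not tested. The exon union of *Gnas* is 11186 bp long and includes alternative upstream exons, so its per-kb level is a lower estimate. Its order against *Gnao1*, *Gnal* and *Gnai2* is not given by these values, and the shares of the alpha signal rest on this length.

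Below the leaders, *Adcy1* at 42.6 ± 7.30 CPM per kb, a cyclase that calmodulin stimulates, and *Adcy2* at 24.4 ± 1.83, a cyclase that beta-gamma dimers stimulate, were the next cyclases, and *Gng3* at 54.3 ± 8.07 and *Gng10* at 38.4 ± 5.54 were the next gamma subunits. The lowest per kb were *Gna14*, a member of the alpha q family, at 0.11 ± 0.05 CPM per kb and *Gnb3*, known from retinal cones, at 0.32 ± 0.17, followed by *Adcy4* at 1.46 ± 0.39, *Adcy7* at 2.00 ± 0.40 and *Gng8*, known from olfactory neurons, at 2.24 ± 0.37 CPM per kb. *Gna14* and *Gnb3* pass the low-count filter of the test but not a filter of 1 CPM in 8 mice. The plot of levels by class shows that the span from *Gng7* to *Gna14* was over 3 orders of magnitude and that the mice of both genotypes lay close together for most members.

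**Figure D1:**
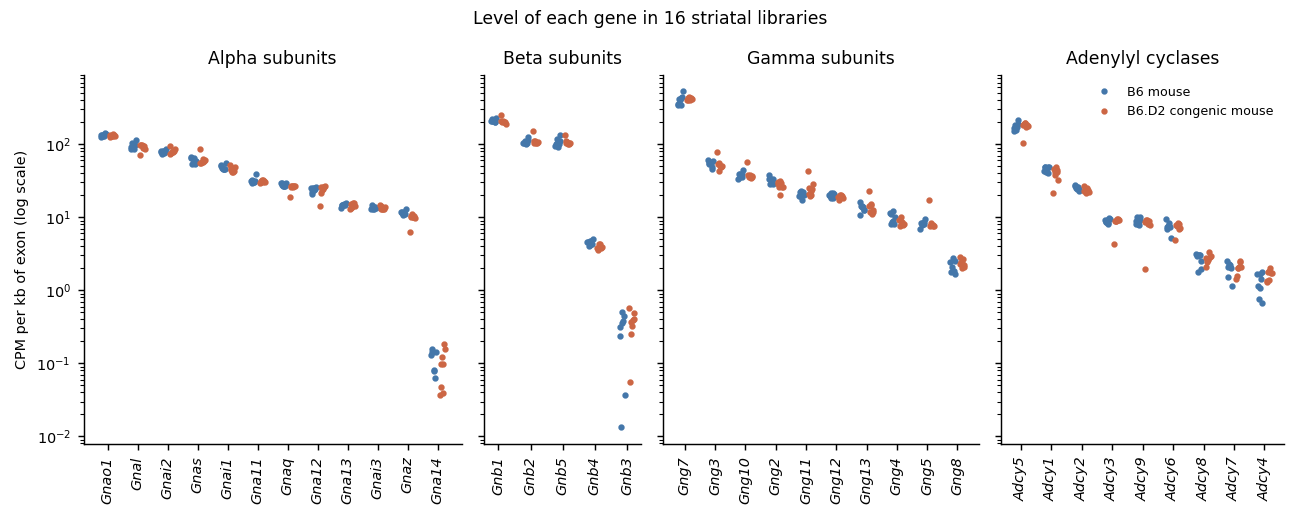
Level of each of the 36 genes in CPM per kb of annotated exon (log scale), 1 point per mouse, with 8 B6 mice in blue and 8 B6.D2 congenic mice in orange, ordered by mean level within each class. *Gng7* stood highest at 413.9 CPM per kb on average, and *Gna14* was the lowest.

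No subunit or cyclase differed between genotypes at a false discovery rate of 5% in edgeR's quasi-likelihood test with genotype as the only term. The smallest adjusted p among the 36 was 0.331. The study's own edgeR model also held home cage, and the study named *Gng2* as downregulated in glutamate and alpha q signalling. It drew these pathways from its genes at the same false discovery rate. Here *Gng2* did not pass that rate, with an edgeR adjusted p of 0.367 in a fit without home cage. The reason for the difference was not tested. Over all genes tested, 1 gene or 0.00641% passed. At an unadjusted p under 0.05, 6 of the 36 (16.7%) differed, against 10% of all genes tested. Of these, 5 were lower in congenic mice (*Gnaz*, *Gnb4*, *Gng2*, *Gng4* and *Adcy2*), or 13.9% against 5.14% of all genes, and 1, *Gng11*, was higher, against 4.86% of all genes. With 36 genes these shares rest on few members. Counts of 15524 genes were simulated for this comparison. The test called 30% of genes changed by 0.3 on the log2 scale and 93% of those changed by 1. Small differences would thus mostly be missed at the 5% rate. The simulation changed 100 genes by each size and drew each count independently, with no outlying library. These shares may therefore be too high for the real counts.

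The size of the differences was small. The log2 fold change, congenic minus B6, lay between -0.2 and 0.2 for 28 of the 36 genes, with a median of -0.02 against 0.01 for all genes tested, and 21 were negative and 15 positive. The median standard error was 0.09. Medians by class were -0.03 for alpha subunits, 0.03 for beta, 0.03 for gamma and -0.03 for cyclases. Without congenic mouse 1, 3 of these medians changed sign, to -0.02 for beta, -0.08 for gamma and 0.03 for cyclases, and the same 3 did so among mice of lanes 7 and 8, at -0.09, -0.08 and 0.05, so no direction can be given for these classes. Summed per kb, the alpha class stood at 540.2 ± 20.1 in B6 and 529.1 ± 4.52 in congenic mice (SD, n = 8 each), the beta class at 430.7 ± 27.2 and 433.6 ± 45.3, the gamma class at 608.5 ± 61.7 and 617.5 ± 27.7, and the cyclases at 279.5 ± 18.4 and 268.2 ± 42.6 CPM per kb. For each of the 36 genes the ranges of the 8 B6 and 8 congenic mice overlapped. The share of all genes tested with such an overlap was not taken, so this is a description only.

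**Figure D2:**
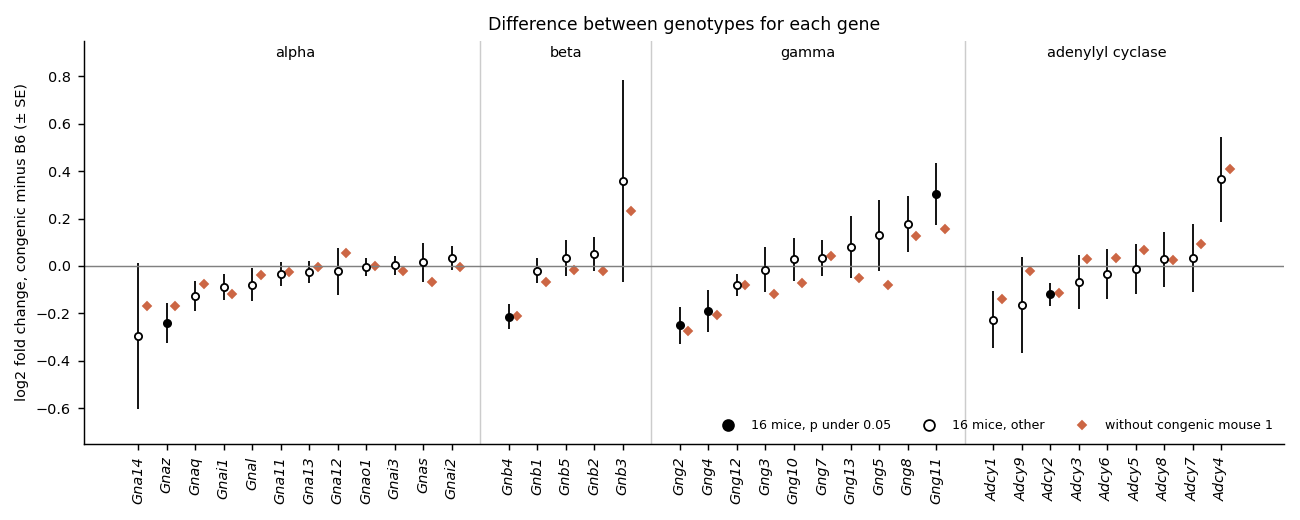
Log2 fold change (congenic minus B6) of each gene with its standard error, from edgeR on 16 mice, grouped by class and ordered within it. Filled circles mark the 6 genes with an unadjusted p under 0.05, and orange diamonds give the value without congenic mouse 1, which moved *Adcy9* from -0.17 to -0.02 and left *Gnb4* at -0.21.

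*Gnb4*, a beta subunit that lies on chromosome 3 (chr3:32578587-32616673, minus strand, GRCm38), had the smallest edgeR p of the 36. Levels in B6 mice ran from 51.9 over a median of 58.7 to 64.9 CPM, and those in congenic mice from 45.1 over 49.0 to 54.4 CPM. Of the 8 congenic mice, 6 lay below every B6 mouse and all 8 lay below the B6 median. The mean was 57.7 ± 4.52 CPM in B6 and 49.7 ± 3.10 CPM in congenic mice (SD, n = 8 each), a log2 fold change of -0.21 (SE 0.05, edgeR p = 0.000725, adjusted p = 0.331), and the exact two-sided permutation test gave p = 0.0014. Without congenic mouse 1 the value was -0.21, among mice of lanes 5 and 6 it was -0.17, and among mice of lanes 7 and 8 it was -0.26.

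*Gng2* (chr14:19872558-19977825, minus strand), a gamma subunit, ran from 124.2 over 143.3 to 164.9 CPM in B6 and from 89.3 over 120.5 to 138.0 CPM in congenic mice. All 8 congenic mice lay below the B6 median and 4 lay below every B6 mouse. The mean went from 142.4 ± 12.8 to 119.8 ± 15.5 CPM, a log2 fold change of -0.25 (SE 0.08, edgeR p = 0.00438, adjusted p = 0.367, exact permutation p = 0.00544). The lane pairs gave -0.31 and -0.19. The study had named *Gng2* as downregulated in these same samples, so the values here are not independent of that result.

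*Gnaz* (chr10:74967177-75016907, plus strand) encodes alpha z, an inhibitory alpha subunit that pertussis toxin does not modify. It ran from 38.9 over 41.8 to 47.2 CPM in B6 and from 22.9 over 36.5 to 40.3 CPM in congenic mice, and 7 of 8 congenic mice lay below every B6 mouse. Means were 41.9 ± 2.71 and 35.5 ± 5.31 CPM (log2 fold change -0.24, SE 0.09, edgeR p = 0.0113, adjusted p = 0.406, exact permutation p = 0.000622). Congenic mouse 1 was the lowest of all at 22.9 CPM. Without it the congenic mean was 37.3 ± 1.602 CPM (n = 7) and the log2 fold change was -0.17.

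The 3 remaining genes had larger p-values. *Gng4* (chromosome 13) ran from 26.1 over 30.7 to 38.8 CPM in B6 and from 24.7 over 27.0 to 32.5 CPM in congenic mice, with a log2 fold change of -0.19 (SE 0.09, edgeR p = 0.0448, adjusted p = 0.488, exact permutation p = 0.0799). *Adcy2* (chr13:68620043-68999600, minus strand) ran from 97.2 over 107.1 to 117.2 CPM in B6 and from 90.9 over 96.7 to 112.1 CPM in congenic mice, with 5 of 8 below every B6 mouse (log2 fold change -0.12, SE 0.05, edgeR p = 0.0237, adjusted p = 0.445, exact permutation p = 0.0228). *Gng11* (chromosome 6), a farnesylated gamma subunit expressed widely outside the brain, ran from 15.4 over 18.4 to 19.9 CPM in B6 and from 17.1 over 20.9 to 37.5 CPM in congenic mice. Its log2 fold change of 0.30 (SE 0.13, edgeR p = 0.0314, adjusted p = 0.463, exact permutation p = 0.0468) fell to 0.16 without congenic mouse 1, the mouse at 37.5 CPM. All 6 genes kept their sign in both lane pairs. The exact permutation tests were run for each of the 36 genes, and their p-values are not adjusted.

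**Figure D3:**
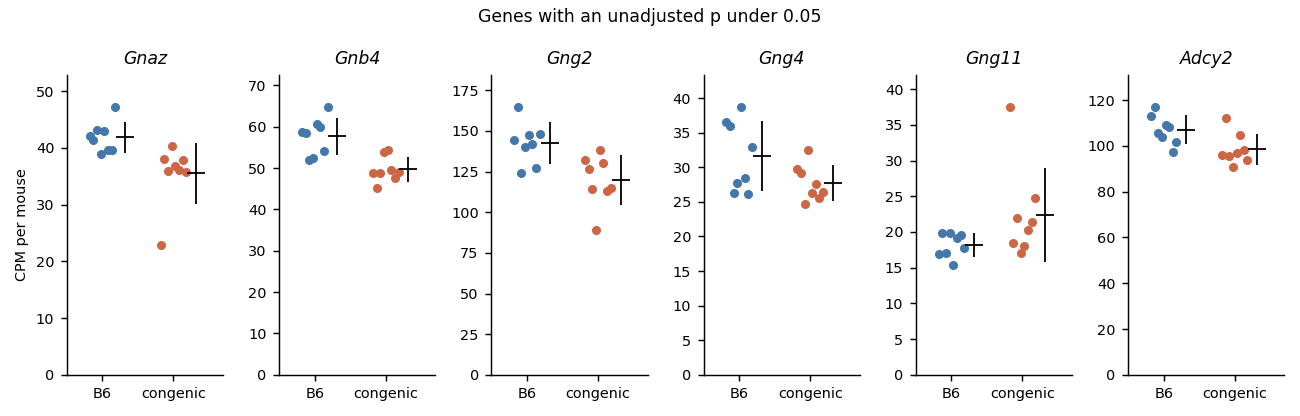
CPM per mouse (axes start at 0) of the 6 genes with an unadjusted p under 0.05, with the mean ± SD of 8 mice as black bars beside the points. *Gnaz*, *Gnb4*, *Gng2*, *Gng4* and *Adcy2* had lower means and *Gng11* a higher mean in congenic mice, and the points of both genotypes overlapped for each gene.

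Cortical glutamatergic neurons lie next to the punched region, and their markers moved with the genotype. All 11 of these markers had negative log2 fold changes, with a median of -0.56, and 9 had an unadjusted p under 0.05, with vesicular glutamate transporter 1 (*Slc17a7*) at 415.3 ± 81.9 CPM in B6 and 268.3 ± 82.2 CPM in congenic mice. Of 6 markers of claustrum and lateral cortex, 5 were negative and 3 had such a p, with sums of 363.1 to 497.0 CPM in B6 and 347.0 to 397.7 CPM in congenic mice. The study had named *Nr4a2*, a gene of this list, and the cortical markers *Slc17a7*, *Tbr1* and *Neurod6* as downregulated in these samples. Their values here are thus not independent of that result. *Gnb4* and *Gng2* are themselves known as genes enriched in claustrum. In tissue punches, fewer cells of a type and less RNA per cell cannot be told apart.

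A cortical score was formed for each mouse by averaging the log2 CPM of the 11 cortical markers after each had been standardized over the mice. It was set beside the 6 genes in permutation tests with adjustment over the 6. The genes had been picked by their genotype p, and the score also differed by genotype. The pooled p-values therefore do not test covariation apart from genotype. With the genotype mean removed, r was 0.76 for *Adcy2*, 0.45 for *Gng4*, 0.38 for *Gng2*, 0.13 for *Gnaz*, 0.02 for *Gnb4* and -0.35 for *Gng11*. *Adcy2* followed the score most closely, with Pearson's r = 0.85 (permutation p = 3e-05, adjusted p = 0.00018) and Spearman's coefficient = 0.87 (permutation p = 8e-05, adjusted p = 0.00048) over 16 mice. Its r was 0.82 within B6, 0.73 within congenic mice, 0.89 and 0.82 in the 2 lane pairs, and 0.88 without the 2 mice of most extreme score. For *Gnb4* the pooled r of 0.51 (permutation p = 0.0449, adjusted p = 0.0539; Spearman's coefficient = 0.54, permutation p = 0.0337, adjusted p = 0.0337) was 0.38 without the 2 extreme mice, and within genotypes it was 0.16 in B6 and -0.12 in congenic mice, while the lane pairs, which mix genotypes, gave 0.38 and 0.84. *Gng2* gave r = 0.64 (permutation p = 0.00588, adjusted p = 0.0176; Spearman's coefficient = 0.67, permutation p = 0.0055, adjusted p = 0.00825), with 0.58 without the 2 extreme mice, 0.41 within B6, 0.37 within congenic mice and 0.60 and 0.96 in the lane pairs. *Gnaz* gave r = 0.47 (permutation p = 0.0559, adjusted p = 0.0559) and Spearman's coefficient = 0.74 (permutation p = 0.00145, adjusted p = 0.00435), with r = 0.64 without congenic mouse 1, 0.54 without the 2 extreme mice, 0.37 within B6, 0.07 within congenic mice and 0.56 and 0.62 in the lane pairs. *Gng4* gave r = 0.60 (permutation p = 0.0141, adjusted p = 0.0283; Spearman's coefficient = 0.61, permutation p = 0.0143, adjusted p = 0.0171), with 0.54 without the 2 extreme mice, 0.53 within B6, 0.45 within congenic mice and 0.43 and 0.75 in the lane pairs. *Gng11* gave r = -0.54 (permutation p = 0.0217, adjusted p = 0.0326; Spearman's coefficient = -0.67, permutation p = 0.00503, adjusted p = 0.00825), with -0.50 without the 2 extreme mice, -0.45 within B6, -0.35 within congenic mice and -0.51 and -0.87 in the lane pairs.

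With the cortical score as a covariate, *Gnb4* was the only one of the 36 genes with an unadjusted p under 0.05, against 1.91% of all genes tested. Its log2 fold change stayed at -0.21 (SE 0.08, unadjusted edgeR p = 0.012). The score was built without the list of claustrum and lateral cortex. The part of claustrum content in the value of *Gnb4* was not tested. The value of *Adcy2* became 0.00 (SE 0.05), that of *Gng4* -0.04 (SE 0.11), that of *Gng2* -0.14 (SE 0.10), that of *Gnaz* -0.20 (SE 0.12) and that of *Gng11* 0.14 (SE 0.18). The score itself differed between genotypes, so this fit takes out part of any difference that the D2 segment makes to cortical genes.

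The genes known for dopamine and adenosine signalling in the striatum showed no difference beyond the spread between mice. *Gnal* ran from 683.6 over 736.2 to 908.3 CPM in B6 and from 566.2 over 745.4 to 763.9 CPM in congenic mice, a log2 fold change of -0.08 (SE 0.07, edgeR adjusted p = 0.706). *Adcy5* ran from 1063 over 1227 to 1509 CPM and from 736.5 over 1295 to 1373 CPM (log2 fold change -0.01, SE 0.10, adjusted p = 0.976). *Gng7* ran from 1316 over 1556 to 2008 CPM and from 1507 over 1595 to 1658 CPM (log2 fold change 0.03, SE 0.07, adjusted p = 0.893). *Gnb1* ran from 633.3 over 656.4 to 712.2 CPM and from 602.4 over 635.1 to 798.5 CPM (log2 fold change -0.02, SE 0.05, adjusted p = 0.919). In each case the highest or lowest mouse was B6 mouse 8 or congenic mouse 1. For *Gnb1*, 4 of 8 congenic mice lay below every B6 mouse and 1, mouse 1, lay above.

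Across the 16 mice *Gnal*, *Gng7* and *Adcy5* varied together. *Gnal* and *Adcy5* gave r = 0.86 (permutation p = 0.00012, adjusted over 6 pairs 0.00072) and Spearman's coefficient = 0.79 (permutation p = 0.00042, adjusted p = 0.00126), with r = 0.82 within B6, 0.96 within congenic mice, 0.89 and 0.85 in the lane pairs, and 0.55 without the 2 mice farthest from the median. *Gng7* and *Adcy5* gave r = 0.57 (permutation p = 0.0386, adjusted p = 0.0757) and Spearman's coefficient = 0.88 (permutation p = 2e-05, adjusted p = 0.00012), with r = 0.92 without congenic mouse 1, 0.43 without B6 mice 2 and 8, and 0.36 and 0.94 in the lane pairs. *Gnal* and *Gng7* gave r = 0.60 (permutation p = 0.0187, adjusted p = 0.056) and Spearman's coefficient = 0.66 (permutation p = 0.00622, adjusted p = 0.0124), with r = 0.53 without the 2 farthest mice and 0.29 and 0.90 in the lane pairs. *Gnb1* did not vary with them in 1 direction. With *Adcy5* its r was -0.60 over all mice (permutation p = 0.0505, adjusted p = 0.0757; Spearman's coefficient = -0.23, permutation p = 0.392, adjusted p = 0.471), -0.21 without the 2 farthest mice, 0.58 within B6 and -0.91 within congenic mice, and 0.23 over 15 mice without congenic mouse 1, where *Gnb1* was at its highest and *Adcy5* at its lowest. The genes of a mouse share its punch and its library, and the 2 libraries that stood apart by their reads outside exons, congenic mouse 1 and B6 mouse 8, were the 2 mice farthest from the median for *Gnal*.

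**Figure D4:**
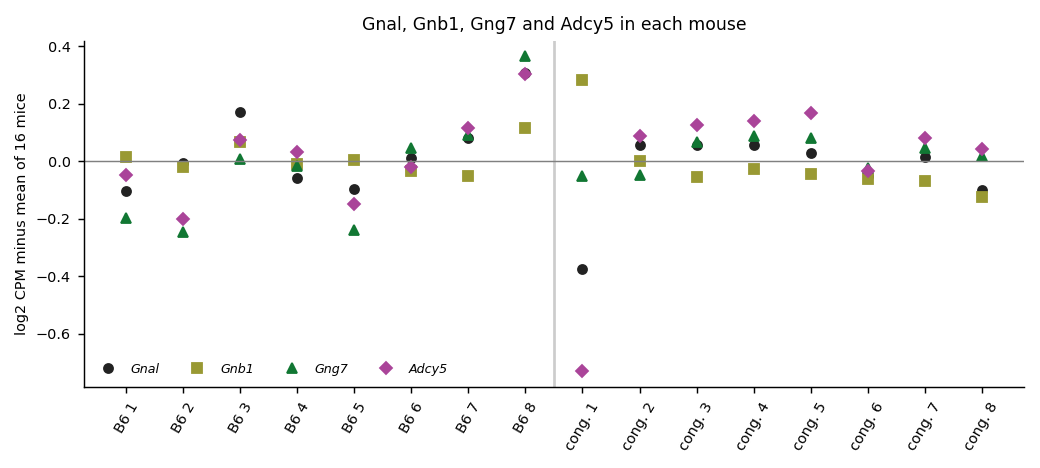
Log2 CPM of *Gnal*, *Gnb1*, *Gng7* and *Adcy5* in each of 16 mice, minus the gene's mean over the mice, with B6 mice on the left and congenic mice on the right of the line. In B6 mouse 8 all 4 genes were above their mean, and in congenic mouse 1 *Gnb1* was at 798.5 CPM, its highest, while *Adcy5* was at 736.5 CPM, its lowest.

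The other alpha subunits stood at similar levels in both genotypes, with 1 near the threshold. *Gnao1* ran from 844.2 to 953.6 CPM in B6 and from 865.5 to 929.5 CPM in congenic mice, with a log2 fold change of 0.00 (SE 0.04). *Gnas*, *Gnai2* and *Gnai3* had values of 0.02, 0.03 and 0.00, and *Gnai1* had -0.09 (SE 0.05). *Gnai2* was the highest value of its class, and *Gna14*, at less than 1 CPM in every mouse, was the lowest at -0.30 (SE 0.31). In the alpha q family *Gnaq* ran from 163.4 over 168.5 to 185.0 CPM in B6 and from 117.6 over 164.3 to 167.6 CPM in congenic mice, and each of the 8 congenic values was under the median of B6. The log2 fold change of *Gnaq* was -0.13 (SE 0.06, edgeR p = 0.0552, adjusted p = 0.509, exact permutation p = 0.00777), and -0.08 without congenic mouse 1. *Gna11* had -0.03, and *Gna12* and *Gna13* had -0.02 each.

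Among the remaining beta and gamma subunits, *Gnb2* and *Gnb5* had log2 fold changes of 0.05 (SE 0.07) and 0.03 (SE 0.08), and the rare *Gnb3* had 0.36 (SE 0.43), the highest of its class. *Gng3*, *Gng10*, *Gng12* and *Gng13* lay between -0.08 and 0.08, *Gng5* had 0.13 (SE 0.15) and *Gng8* 0.18 (SE 0.12). Exons of *Gng13* and *Gng3* overlap those of *Chtf18* and *Bscl2* on the opposite strand over 51.6% and 23.4% of their length, and 72.0% of the *Gng10* exons are shared with a same-strand annotation, *Gm20503*. The counts were made without strand and without reads that fall on 2 genes, so the levels of these genes are uncertain, and so are those of *Gnas* and *Adcy3*, with 22.0% and 22.1% of their exons overlapped. Of the 50-base stretches of *Gng5*, 89.0% occur once in the genome.

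Of the other cyclases, *Adcy1* ran from 507.3 over 592.5 to 617.4 CPM in B6 and from 269.3 over 519.3 to 608.3 CPM in congenic mice, the lowest log2 fold change of its class at -0.23 (SE 0.12, edgeR p = 0.074, adjusted p = 0.536, exact permutation p = 0.0476). Without congenic mouse 1, the mouse at 269.3 CPM, the value was -0.14. *Adcy4* was the highest of its class at 0.37 (SE 0.18, edgeR p = 0.0561, adjusted p = 0.51), with 2.32 over 4.50 to 6.19 CPM in B6 and 4.55 over 6.04 to 6.97 CPM in congenic mice. All 8 congenic mice lay above the B6 median of this gene, and markers of endothelial cells, where it is known to be expressed, summed to 154.0 to 252.8 CPM (median 204.8) in B6 and 151.6 to 245.8 CPM (median 224.0) in congenic mice. Of 6 such markers, 5 had positive log2 fold changes, with a median of 0.09, none had an unadjusted p under 0.05, and their part in the value of *Adcy4* was not tested. *Adcy3*, *Adcy6*, *Adcy7*, *Adcy8* and *Adcy9* had log2 fold changes of -0.07, -0.03, 0.03, 0.03 and -0.17, each within its standard error of 0.

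Congenic mouse 1 had the highest level of all 16 mice for 13 of the 36 genes and the lowest for 11. B6 mouse 8 had the highest level for 10 and the lowest for 3, and no other mouse held more than 5 extremes. The genes highest in congenic mouse 1 had a median exon length of 2345 bp and those lowest in it a median of 6185 bp. Its deviation from the mean of the other congenic mice fell with exon length, with Spearman's coefficient = -0.65 over the 36 genes and -0.56 over 14490 genes with an annotated length, given as a description across genes. For B6 mice, each against the other B6 mice, the same coefficient lay between -0.26 and 0.21 over the 36 genes. Over all genes it lay between -0.16 and 0.21. The reference of each other congenic mouse included congenic mouse 1, so its length relation enters their coefficients with the opposite sign. These were all positive, from 0.08 to 0.55 over the 36 genes and from 0.10 to 0.39 over all genes. Short genes such as *Gng5*, at 47.7 CPM against 20.5 to 22.8 CPM in the other congenic mice, stood above the rest, and long genes such as *Adcy9*, at 10.03 against 41.3 to 48.4 CPM, stood below, a deviation of -2.17 on the log2 scale. Exceptions were *Gnas*, with 11186 bp of exon and a deviation of 0.56, *Gnb4*, with 12678 bp and -0.03, and the shorter *Gna14*, *Gna12* and *Gnaz*, with 3383, 3416 and 3612 bp and deviations of -1.26, -0.81 and -0.70.

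**Figure D5:**
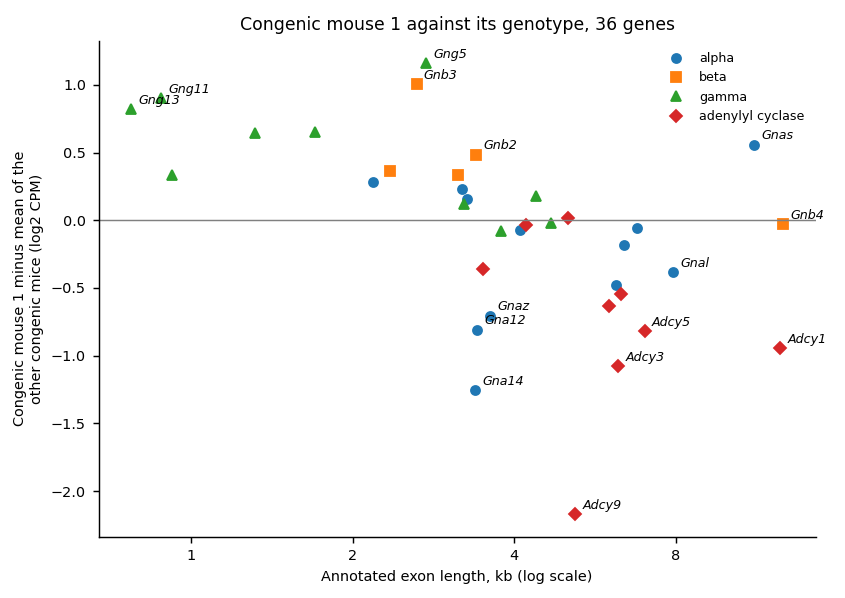
Deviation of congenic mouse 1 from the mean of the other 7 congenic mice (log2 CPM) against annotated exon length in kb (log scale), 1 point per gene, with symbols by class. The points run from *Gng5* above 0 down to *Adcy9* at -2.17, and Spearman's coefficient over the 36 genes was -0.65.

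With congenic mouse 1 and B6 mouse 8 both left out, 8 of the 36 genes had an unadjusted p under 0.05, against 12.8% of all genes, and 0 passed an FDR of 5% in edgeR. The 7 lower ones were *Gnai1* (-0.09), *Gnaz* (-0.14), *Gnaq* (-0.06), *Gnb4* (-0.19), *Gng2* (-0.27), *Gng4* (-0.20) and *Adcy2* (-0.13), and *Adcy5* was higher at 0.11 (unadjusted edgeR p = 0.036). *Adcy5* in these mice thus had the opposite sign from the value over all 16. Leaving out congenic mouse 8 alone gave 3 such genes, against 7.89% of all genes. The test of whether the genotype difference differed between the mice of lanes 5 and 6 and those of lanes 7 and 8 (interaction term, edgeR) called 0 of the 36 genes at an FDR of 5% and 0 at an unadjusted p under 0.05, against 1.88% of all genes.

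None of the 36 genes lies within the D2 segment of Line 4a. *Adcy1* (chr11:7063433-7178506) and *Gna13* (chr11:109362794-109401369, both plus strand, GRCm38) are on the same chromosome outside it. *Gnal* is on chromosome 18, *Gng7* on chromosome 10 (80948624 to 81014925), *Gnb1* on chromosome 4 (155491300 to 155559269) and *Adcy5* on chromosome 16 (35154494 to 35305743).

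Of 43 further genes of the pathway, 42 had a row, 38 were tested and 0 passed an FDR of 5% in edgeR, where 11 (28.9%) had an unadjusted p under 0.05 against 10% of all genes. The list was chosen with results of these data known, so its share is a description. Of 9 chaperones and accessory proteins, 3 had negative log2 fold changes, each with an unadjusted p under 0.05: *Gprin1*, which binds activated alpha subunits at the growth cone (52.0 ± 6.57 to 42.1 ± 7.30 CPM, log2 fold change -0.31, SE 0.10), its relative *Gprin3* (-0.56, SE 0.25) and the cyclase-associated protein *Cap2* (-0.16, SE 0.06). Of 10 effectors, 7 had negative values, and the 3 with an unadjusted p under 0.05 were subunits of the potassium channels that beta-gamma dimers open: *Kcnj3* (15.6 ± 2.32 to 11.7 ± 2.99 CPM, -0.41, SE 0.15), *Kcnj6* (7.36 ± 1.82 to 4.83 ± 1.71 CPM, -0.62, SE 0.21) and *Kcnj9* (72.1 ± 3.56 to 60.6 ± 11.1 CPM, -0.25, SE 0.09).

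Among 7 receptor kinases and arrestins, 6 of them negative, 2 had an unadjusted p under 0.05: *Adrbk1*, the kinase that beta-gamma dimers recruit to receptors (173.7 ± 9.41 to 156.3 ± 10.2 CPM, -0.15, SE 0.05), and *Arrb2* (0.13, SE 0.06). Of 9 cAMP effectors, 7 had negative values, and those with an unadjusted p under 0.05 were the protein kinase A subunits *Prkacb* (-0.11, SE 0.05) and *Prkar1b* (466.1 ± 32.5 to 416.1 ± 33.6 CPM, -0.16, SE 0.06). In the remaining members of the G protein and cyclase families, 3 of 7 were tested and *Gna15* had such a p at 0.20 (SE 0.08). The smallest adjusted p among the genes named here was 0.361, that of *Adrbk1*, and the part of the cortical markers in these values was not tested.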

How the data were processed

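The members and the gene lists were chosen with earlier results of these data known. Per the authors' scripts and the submitters' processing notes, 50 bp single-end reads of stranded TruSeq mRNA libraries were aligned with TopHat to mm10 and counted per gene with HTSeq 0.6.1p1 in union mode without strand. The counts were deposited by the authors for each mouse and lane without normalization, and leave out multiply aligned and ambiguous reads. Deposited lists of the authors' own comparison, which hold fold changes and p-values, were not used. The 31 lane files were summed per mouse (1 file for B6 mouse 7). The 2 files of 15 mice differed by sampling noise or slightly more (chi-square per degree of freedom 1.00 to 1.05). The 5 tally rows that name no gene, 31.7% to 38.6% of the full tally, were left out.

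edgeR 4.0.16 (R 4.3.3) served for the filter (filterByExpr), the TMM scaling and the quasi-likelihood test with genotype as the only term, since the labels give no home cage. P-values were adjusted by Benjamini-Hochberg across the whole table of genes that passed the filter. A standard error is the size of the log2 fold change over the square root of F. A prior count of 0.5 went into log2 CPM. Each gene was also compared by an exact two-sided permutation test, and correlations used 100000 resamples (scipy 1.17.1). DESeq2 1.42.0 was an alternative. Exon lengths came from GENCODE on NCBIM37 and positions from RefSeq on GRCm38, by symbol. The fit was tested on simulated data. The labels do not say more of the mice than their genotype and age, and the paper and labels differ in punch diameter, age range and RNA kit. Members were named by class, by leading level, by an unadjusted p under 0.05, by extreme fold change in each class and by an outlying mouse.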

Additional observations from a re-analysis of the deposited data

Results flagged for a closer look

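In 18 of 72 groups of 8 mice (36 genes in each genotype), the highest or lowest mouse stood apart from the nearest other by more than Dixon's 95% critical value for 8 values, where chance flags about 1 in 20. Congenic mouse 1 accounted for 17 of them and B6 mouse 8 for 1.

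Congenic mouse 1 was the highest congenic mouse for *Gnas* at 954.3 CPM (next 698.2), *Gnb1* at 798.5 (658.0), *Gnb2* at 509.0 (378.8), *Gnb5* at 316.8 (262.9), *Gng3* at 134.4 (93.5), *Gng5* at 47.7 (22.8), *Gng10* at 74.3 (50.5), *Gng11* at 37.5 (24.8) and *Gng13* at 17.7 CPM (11.8). It was the lowest congenic mouse for *Gnal* at 566.2 CPM (next 685.3), *Gnaz* at 22.9 (35.8), *Gnaq* at 117.6 (158.9), *Gna12* at 48.6 (72.7), *Adcy3* at 26.9 (54.7), *Adcy5* at 736.5 (1194), *Adcy6* at 29.7 (41.3) and *Adcy9* at 10.03 CPM (41.3). B6 mouse 8 was the highest B6 mouse for *Gna11* at 158.3 CPM (next 133.8). The share of multiple alignments in the tally and the relation to exon length in congenic mouse 1 are given beside the results above, and their part in these values was not tested.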

How the results depend on the processing

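None of the 36 genes passed an FDR of 5% in any alternative tried, with DESeq2's 0.0572 for *Gnb4* as the smallest adjusted p, although DESeq2 called 25 genes and edgeR's likelihood ratio test 20 of all tested, against 1 in the quasi-likelihood test. The number of the 36 with an unadjusted p under 0.05 was 6 (10% of all genes tested), became 1 once the cortical score was in the fit (1.91% of all genes) and 2 among mice of lanes 5 and 6 (3.2%), and ran from 3 to 9 when 1 mouse was left out (7.09% to 13.4%). The median log2 fold change of the 36 was -0.0613 among mice of lanes 7 and 8. *Gnaz*, *Gnb4*, *Gng2*, *Gng4* and *Gng11* kept their sign in all 29 alternatives and *Adcy2* in 28. With the mouse number as a replicate block, 7 of the 36 had such a p (8.83% of all genes). Equal numbers did not pair the mice (correlations of deviations from -0.12 to 0.36, over 0.1 in 3 of 8 pairs, and 2 of 8 mice closest to their own number).

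Of 1040 values of single genes under an alternative, 80 had the opposite sign. On the log2 scale they were *Gnai2* -0.039, *Gnai3* -0.0119, *Gnb1* 0.0179, *Gnb3* -0.49, *Gng3* 0.0618, *Gng7* -0.0677, *Adcy2* 0.000902, *Adcy6* 0.0614, *Adcy7* -0.0919 and *Adcy8* -0.0592 with the cortical score. In lanes 5 and 6 they were *Gnao1* 0.00258, *Gnb1* 0.0445, *Gng3* 0.0265, *Adcy7* -0.245 and *Adcy8* -0.129. In lanes 7 and 8 they were *Gnai3* -0.0271, *Gna12* 0.0533, *Gnb2* -0.0728, *Gnb5* -0.0869, *Gng5* -0.156, *Gng7* -0.0546, *Gng10* -0.151, *Gng13* -0.0613, *Adcy3* 0.0517 and *Adcy6* 0.085. Without congenic mouse 1 and B6 mouse 8, an alternative chosen after seeing the data, they were *Gnal* 0.00354, *Gnas* -0.0753, *Gnai3* -0.0197, *Gnao1* 0.00617, *Gna11* 0.0162, *Gna12* 0.0728, *Gna13* 0.0094, *Gng5* -0.0485, *Gng10* -0.0376, *Gng13* -0.0709, *Adcy3* 0.0411, *Adcy5* 0.111, *Adcy8* -0.0311 and *Adcy9* 0.012. Scaling or filter turned *Gnai3* (-9.07e-05 in DESeq2, -0.000721 with RLE factors, -0.00106 without a filter) and *Gnao1* (0.00835 with upper-quartile scaling), and the second lane file alone gave *Gng3* 0.0123 and *Adcy7* -0.000863. Leaving out 1 mouse at a time gave ranges across 0 for *Gnas* -0.0682 to 0.0394, *Gnai2* -0.0047 to 0.0555, *Gnai3* -0.0192 to 0.0181, *Gnao1* -0.0142 to 0.00952, *Gna11* -0.0494 to 0.00728, *Gna12* -0.0514 to 0.0556, *Gnb2* -0.0209 to 0.0779, *Gnb5* -0.019 to 0.0839, *Gng3* -0.117 to 0.026, *Gng5* -0.0794 to 0.165, *Gng10* -0.0721 to 0.0609, *Gng13* -0.0518 to 0.126, *Adcy3* -0.0936 to 0.0297, *Adcy5* -0.0398 to 0.0665, *Adcy6* -0.0964 to 0.0318, *Adcy7* -0.0545 to 0.0973 and *Adcy8* -0.0383 to 0.0736. Pearson's r of *Gnb1* was 0.672 with *Gnal* and 0.576 with *Adcy5* in B6, 0.778 and 0.435 in lanes 7 and 8, and 0.335 with *Gnal* without the 2 farthest mice, opposite in sign to -0.27 and -0.60 over all mice. With *Gng7* it was -0.521 in congenic mice, -0.0588 in lanes 5 and 6 and -0.40 without the 2 farthest mice, against 0.04. The causes were not tested.

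At this depth counting error matters most for *Gna14*, *Gnb3* and *Gng8*, at under 3 CPM each, and for the others the mice differ by more than counting error. The mice also differed widely for *Gnb3*, with counts from 1 to 48. Its SD was 62.8% of the mean in B6 and 43.7% in congenic mice. Sex and home cage are not in the labels and were not terms of the fit. Each replicate is 1 mouse of 1 congenic line.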

Other observations

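Markers of other cell types that a striatal punch can hold were summed in each mouse, and no gene of these lists passed an FDR of 5% in edgeR. Oligodendrocyte markers summed to 9810 to 14023 CPM in B6 and 10887 to 15262 CPM in congenic mice, and all 7 had positive log2 fold changes with a median of 0.10. Microglial markers summed to 447.4 to 537.8 CPM and 502.0 to 578.2 CPM, with 7 of 7 positive and a median of 0.10. Astrocyte markers summed to 5993 to 6824 CPM and 5332 to 6692 CPM, with 4 of 7 positive. Markers of choroid plexus and ependyma summed to 35.5 to 141.9 CPM and 48.3 to 184.1 CPM, with 5 of 6 positive. None of the markers in these 4 lists had an unadjusted p under 0.05. Over 9 markers of hypothalamus, thalamus and ventral forebrain the sums were 27.8 to 73.7 CPM and 35.1 to 60.2 CPM, and 1 of 6 tested, *Nkx2-1*, had such a p, with a log2 fold change of 0.32 (SE 0.12). Over 5 markers of midbrain dopamine neurons they were 24.4 to 28.4 CPM and 21.8 to 33.2 CPM.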
